A study of Homo sapiens with 60 samples.

Results

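The interferon-stimulated genes described here are 31 of 38 listed genes, taken from 60675 gene identifiers in the deposited table because their mean level reached 1 CPM (counts scaled to a fixed library total) in at least 1 group of libraries. The other 7, HERC5, IFITM1, RSAD2, IFI44L, EPSTI1, XAF1 and SAMD9L, stayed below 1 CPM in every group. Of the 31, 28 reached 1 CPM in all 22 groups. MX2 did so in 8 groups, CMPK2 in 13 and OAS2 in 21, and MX2 and CMPK2 were below that level in vehicle. Counts of genes past the test in the main fit (edgeR, 57 libraries) are therefore given over the 28 genes too wherever they differ from those over the 31. Most counts from other fits, those at an unadjusted p and those for Soshiho-tang are over the 31 only. The genes were followed in HT29, a human colorectal adenocarcinoma cell line, through 24 h of exposure to water extracts of medicinal herbs. The extracts were Menthae Herba and Saposhnikoviae Radix, which are single herbs, and Saengmaek-san, Guibi-tang, Soyo-san and Okbyeongpung-san, which are herbal formulas, each at 20, 100 and 500 µg/mL in 3 libraries a dose, and the formula Soshiho-tang with 1 library a dose. The reference was vehicle (DMSO) in 3 libraries, given as 0.1% in the sample characteristics and as 2% in the design text. All groups share the one cell line, and the labels do not say whether libraries of a group came from separate cultures, so the p-values cover only how far these libraries differ among themselves, which may be technical variation.

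Type I and type III interferons bind receptors whose kinases JAK1 and TYK2 phosphorylate STAT proteins, and these join IRF9 to form the transcription factor ISGF3. ISGF3 and the related IRF factors bind a repeat of GAAA letters in the promoters of antiviral genes, among them the IFIT, MX and OAS families. Epithelial cells of the gut respond to type I and type III interferons, and cells also keep a low basal level of many of these genes without added interferon.

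Promoter sequences from RefSeq (GRCh38.p14) were found for 24 of the 31 genes and searched on both strands for GAAA followed by any 2 bases and GAAA again, the core of the interferon-stimulated response element, with overlapping matches counted. In windows from 250 bases before to 50 bases after a transcription start, 17 of these 24 genes held a match, against 4.38% of 27305 genes in the table, and the share over single windows was 3.57% of 35116. USP18, IFIT2, MX2, OAS2, OASL, IFITM2 and IRF7 are not in that table. The genes with no match in any of their windows were HERC6, OAS1, CMPK2, IFI35, STAT2, IRF1 and IRF9. Shown are the 200 bases before the start, 5′ to 3′ on the strand of the gene, for the 4 genes that were higher under Guibi-tang, Soyo-san and Okbyeongpung-san at every dose (IFIT3, IFI44, IFIH1 and IRF9), for OAS3 and IFI6, which differed between Guibi-tang and Saengmaek-san, and for IFITM3 and DDX60, which were lower under Menthae Herba. Capitals mark a match on either strand, so that a run starting with TTTC is the motif read on the opposite strand.
IFIT3: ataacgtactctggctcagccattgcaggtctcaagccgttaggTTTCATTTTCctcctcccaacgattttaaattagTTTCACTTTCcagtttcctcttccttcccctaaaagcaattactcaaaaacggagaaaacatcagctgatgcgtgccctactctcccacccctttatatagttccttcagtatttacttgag
IFI44: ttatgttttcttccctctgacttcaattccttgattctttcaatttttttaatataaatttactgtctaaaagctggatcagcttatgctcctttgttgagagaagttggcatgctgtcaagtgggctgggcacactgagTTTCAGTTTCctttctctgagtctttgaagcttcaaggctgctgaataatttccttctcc
IFIH1: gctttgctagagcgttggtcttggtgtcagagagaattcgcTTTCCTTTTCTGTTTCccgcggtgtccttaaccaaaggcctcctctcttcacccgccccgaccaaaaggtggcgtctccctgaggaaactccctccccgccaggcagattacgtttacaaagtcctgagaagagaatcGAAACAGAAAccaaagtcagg
IRF9: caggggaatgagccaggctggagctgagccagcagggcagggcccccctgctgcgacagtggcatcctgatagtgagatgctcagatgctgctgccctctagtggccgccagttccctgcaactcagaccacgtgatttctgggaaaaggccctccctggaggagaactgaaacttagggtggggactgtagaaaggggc
OAS3: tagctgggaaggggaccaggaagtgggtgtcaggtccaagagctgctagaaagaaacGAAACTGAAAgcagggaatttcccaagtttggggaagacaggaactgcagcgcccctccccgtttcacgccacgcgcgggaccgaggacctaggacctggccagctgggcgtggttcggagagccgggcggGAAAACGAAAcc
IFI6: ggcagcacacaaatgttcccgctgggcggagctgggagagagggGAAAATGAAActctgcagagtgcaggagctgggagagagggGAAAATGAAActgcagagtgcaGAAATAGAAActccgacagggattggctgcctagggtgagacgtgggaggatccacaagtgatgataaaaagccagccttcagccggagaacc
IFITM3: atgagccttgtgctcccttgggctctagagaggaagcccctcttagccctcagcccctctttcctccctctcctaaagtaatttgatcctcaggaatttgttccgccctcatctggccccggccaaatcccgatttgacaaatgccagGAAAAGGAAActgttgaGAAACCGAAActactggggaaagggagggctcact
DDX60: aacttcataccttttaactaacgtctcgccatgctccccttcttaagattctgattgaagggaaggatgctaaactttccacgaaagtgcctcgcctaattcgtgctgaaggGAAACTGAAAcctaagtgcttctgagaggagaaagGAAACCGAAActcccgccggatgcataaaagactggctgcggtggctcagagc

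These stretches lie at chr10:89327797-89327996 on the plus strand for IFIT3 and chr1:78649631-78649830 on the plus strand for IFI44, each for one of its annotated starts. They lie at chr2:162318685-162318884 on the minus strand for IFIH1, chr14:24161065-24161264 on the plus strand for IRF9 and chr12:112938274-112938473 on the plus strand for OAS3. The last 3 are at chr1:27672193-27672392 on the minus strand for IFI6, chr11:320861-321060 on the minus strand for IFITM3 and chr4:168318753-168318952 on the minus strand for DDX60. IFIH1 and IFI6 carried 3 matches each in their windows, and 2 of those in IFIH1 overlap near the far end of the stretch. IFIT3, OAS3, IFITM3 and DDX60 carried 2 each and IFI44 carried 1. IRF9 is shown in full lower case because these letters do not occur in its window.

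Total counts ran from 19494996 to 41934294 in each library, with a median of 29181755. The colon epithelial label was borne out by 10 of 11 epithelial markers above 1 CPM, with KRT8 the highest, while 3 of 10 leukocyte markers passed 1 CPM and their summed level ran from 9.78 to 14.9 CPM in extract libraries and from 10.998 to 11.85 CPM in vehicle. Mitochondrial transcripts took 9.74 to 13.9% of the counts in extract libraries and 12.8 to 13.5% in vehicle. The first principal component, with 12.8% of the variance, parted 31 libraries with earlier library numbers from 29 with later ones, and did so also without the 31 genes. Menthae Herba, Saposhnikoviae Radix and vehicle lie wholly in the earlier numbers, and Soyo-san, Okbyeongpung-san and Soshiho-tang wholly in the later ones. Saengmaek-san (6 earlier, 3 later) and Guibi-tang (4 earlier, 5 later) alternate in the numbering across its break. A difference of Soyo-san or Okbyeongpung-san from vehicle therefore cannot be told apart from a difference between the parts of the numbering, beyond what a fit with the numbering as a term draws from Saengmaek-san and Guibi-tang.

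With the group allowed for, 3 of the 31 interferon-stimulated genes were higher in later-numbered libraries (IFITM2, IRF1 and IRF7) and 2 lower (IFI27 and STAT2), against 15.9% higher and 13.7% lower among 17049 genes tested, with a median log2 change of 0.00. Their spread between replicate libraries was somewhat wide: the median coefficient of variation beyond counting error was 0.0709, from 0.0375 for IRF1 to 0.278 for MX2, against 0.0532 over all genes tested, and 25 of the 31 lay above the median of genes at a like level. A pair of libraries stood apart by their mean over the 31 genes, which is given below as log2 CPM minus the vehicle mean. Okbyeongpung-san at 500 µg/mL, replicate 2, reached 0.716, with 0.264 and 0.244 in replicates 1 and 3. Soyo-san at 500 µg/mL, replicate 1, reached 0.522, with 0.160 and 0.322 in replicates 2 and 3.

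Levels set per kilobase of exon in vehicle give the order of the genes without extract. BST2, a membrane protein that tethers budding virus particles, was the highest at 30.0 CPM per kb. ISG15, a ubiquitin-like modifier, followed at 18.4 CPM per kb and the entry inhibitor IFITM2 at 18.2 CPM per kb, and these 2 were nearly level. PARP14 stood at 10.9 CPM per kb and OAS3, a sensor of double-stranded RNA that makes 2-5-linked oligoadenylates, at 10.2 CPM per kb. MX2 was the lowest at 0.0390 CPM per kb. The paralogues of the IFIT, IFITM, OAS and MX families share sequence, and the expected counts divide reads that match several of them, so values within a family are uncertain to that extent.

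**Figure D1:**
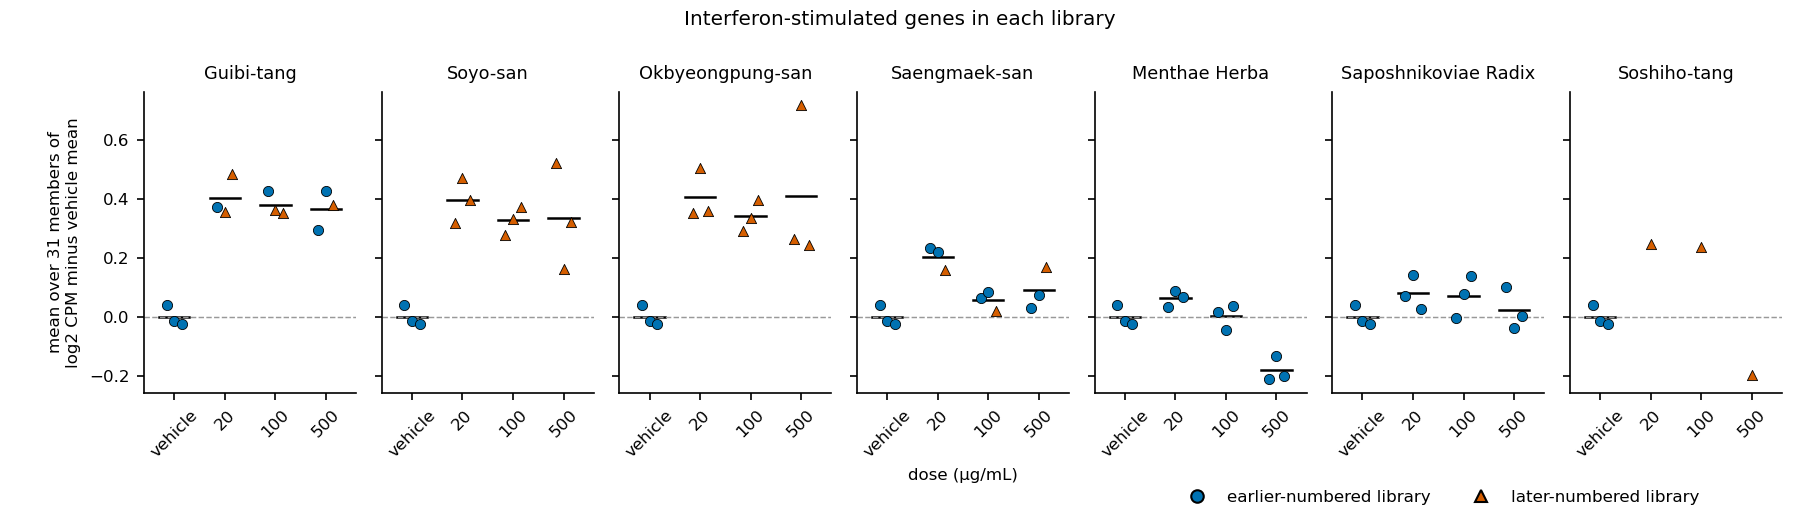
Mean over the 31 interferon-stimulated genes of log2 CPM minus the vehicle mean (vertical axis) for every library, in a panel for each extract with vehicle and the doses of 20, 100 and 500 µg/mL on the horizontal axis. Circles are earlier-numbered and triangles later-numbered libraries, and bars are means of 3 libraries. All Guibi-tang, Soyo-san and Okbyeongpung-san libraries lie at 0.160 or above, the 3 Menthae Herba libraries at 500 µg/mL at -0.133 or below and the 3 vehicle libraries between -0.0252 and 0.0385.

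Averaged over the 31 genes, every library of Guibi-tang, Soyo-san and Okbyeongpung-san lay above vehicle, while the other extracts had libraries within or below the vehicle range. The mean over the genes ran from 0.294 to 0.484 in the 9 Guibi-tang libraries, from 0.160 to 0.522 in the 9 Soyo-san libraries and from 0.244 to 0.716 in the 9 Okbyeongpung-san libraries. It ran from 0.0205 to 0.232 in Saengmaek-san, from -0.0372 to 0.142 in Saposhnikoviae Radix, from -0.212 to 0.0871 in Menthae Herba and from -0.0252 to 0.0385 in vehicle. Over the 28 genes at 1 CPM in every group the mean was lower at the top. There it ran from 0.252 to 0.425 in Guibi-tang, 0.159 to 0.421 in Soyo-san, 0.226 to 0.591 in Okbyeongpung-san and -0.0162 to 0.0164 in vehicle. In the plot of the mean over the 31 genes by library, Guibi-tang, Soyo-san and Okbyeongpung-san do not overlap vehicle at any dose. Within Guibi-tang the earlier-numbered libraries (0.294 to 0.428) and the later-numbered ones (0.350 to 0.484) covered much the same range. In RNA from a whole culture, a change in the share of cells that make a transcript and a change in the amount per cell cannot be told apart.

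Under Guibi-tang at 500 µg/mL 10 of the 31 genes rose over vehicle and 0 fell (edgeR's quasi-likelihood test, Benjamini-Hochberg adjusted p under 0.05 over 17049 genes), where 1.28% of all genes were higher and 0.974% lower. Each of the 10 is among the 28 genes that reached 1 CPM in every group. The median log2 fold change was 0.37 over the 31 genes, 0.32 over the 28 and 0.01 over all genes, and 29 of the 31 were positive. At 100 µg/mL 6 genes rose (0.575% of all genes) and at 20 µg/mL 9 rose (0.504%), and 0 fell at either dose, where 0.499% and 0.346% of all genes were lower. The 6 became 3 without Guibi-tang replicate 2 and 1 without vehicle replicate 3. The 9 became 5 without Guibi-tang replicate 2, 2 without its replicate 3, 3 without vehicle replicate 1 and 4 without vehicle replicate 3. With no filter on low counts they were 17 at each of these doses, and with DESeq2 11 at 100 µg/mL and 14 at 20 µg/mL. The shares of 0.575% and 0.504% belong to the main fit, and the shares of all genes in these other fits are not given. With the earlier-numbered libraries alone, which leaves 2 Guibi-tang libraries at 500 µg/mL against 3 of vehicle, 15 of the 31 rose, where 2.14% of all genes were higher and 1.82% lower. The count of 10 at 500 µg/mL was 6 without vehicle replicate 1, 5 without vehicle replicate 2, 4 without Guibi-tang replicate 2 and 6 without Guibi-tang replicate 3.

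IFIT3, which binds viral RNA together with IFIT1, gave 8.61, 9.03 and 10.6 CPM under Guibi-tang at 500 µg/mL and 6.14, 6.70 and 6.42 CPM in vehicle. Every Guibi-tang value lay above every vehicle value, and the log2 fold change was 0.54 ± 0.09 (SE, n = 3 libraries each; edgeR adjusted p = 6.06e-05). IFIH1, the cytosolic sensor MDA5 that recognises long double-stranded RNA, gave 10.2, 9.26 and 9.92 CPM under Guibi-tang and 6.55, 6.98 and 7.24 CPM in vehicle. The groups again did not overlap, with a log2 fold change of 0.49 ± 0.09 (edgeR adjusted p = 0.000173). IFIT2, which binds RNA and restricts its translation, averaged 4.67 ± 0.273 CPM under Guibi-tang and 3.18 ± 0.327 CPM in vehicle (SD), a log2 fold change of 0.54 ± 0.11 (edgeR adjusted p = 0.00252). IFI44, a cytoplasmic protein of the interferon response, gave 3.87, 3.72 and 3.47 CPM under Guibi-tang and 2.35, 2.51 and 2.11 CPM in vehicle, and its log2 fold change was 0.67 ± 0.14 (edgeR adjusted p = 0.00279). No vehicle library reached the lowest Guibi-tang library in either gene. The share of all genes lying apart from vehicle in this way was not counted. Such statements, here and below, describe the values only.

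IRF9, the DNA-binding subunit of ISGF3, gave 10.8, 10.7 and 9.69 CPM under Guibi-tang at 500 µg/mL and 7.76, 7.19 and 5.35 CPM in vehicle, a log2 fold change of 0.63 ± 0.15 (edgeR adjusted p = 0.0102). OAS3 gave 101, 103 and 104 CPM under Guibi-tang and 89.3, 79.9 and 83.7 CPM in vehicle, a log2 fold change of 0.29 ± 0.07 (edgeR adjusted p = 0.0138). Both genes were apart in all libraries, although the change in OAS3 was small against that in IRF9. SAMD9, an antiviral protein that binds nucleic acid, had a log2 fold change of 0.40 ± 0.10 and OAS1, a second oligoadenylate synthetase, of 0.37 ± 0.10 (edgeR adjusted p = 0.0178 and 0.0249). IFIT1 and IFIT5 completed the 10, at 0.63 and 0.43. Of the other genes followed in every comparison with vehicle, the log2 fold changes under Guibi-tang at 500 µg/mL were 0.22 for ISG15, 0.56 for IFI6, 0.69 for MX1, 0.16 for IFITM3, 0.58 for IFI27, 0.35 for USP18, 0.08 for STAT2 and 0.18 for IRF1, with edgeR adjusted p from 0.0539 for MX1 to 0.681 for STAT2.

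Under Soyo-san at 500 µg/mL 19 of the 31 genes rose over vehicle and 0 fell, where 8.03% of all genes were higher and 6.43% lower. Of the 28 genes at 1 CPM in every group 16 rose. Under Okbyeongpung-san at 500 µg/mL 20 of the 31 rose, 17 of the 28, and 0 fell, where 4.36% of all genes were higher and 3.03% lower. The median log2 fold changes of the 31 genes were 0.31 under Soyo-san and 0.39 under Okbyeongpung-san (0.31 and 0.33 over the 28), against 0.00 over all genes in both. These counts lean on the libraries that stood apart: without replicate 1 the Soyo-san count was 4 (IFIT2, IFIT3, SAMD9 and IFIH1), where 2.92% of all genes were higher, and without replicate 2 the Okbyeongpung-san count was 6 (IFIT3, OAS3, IFI44, SAMD9, IFIH1 and IRF1), where 1.97% were higher. The Soyo-san count was 12 without vehicle replicate 1 and 11 without vehicle replicate 3. With the numbering as a term in the fit 9 genes rose under Soyo-san (3.92% of all genes) and 12 under Okbyeongpung-san (1.3%). At the lower doses, which do not hold those libraries, 14 genes rose under Soyo-san at 100 µg/mL (5.57% of all genes higher, 4.29% lower) and 15, 14 of the 28, at 20 µg/mL (2.04% and 1.89%). Under Okbyeongpung-san 12 rose at 100 µg/mL (2.17% higher, 1.58% lower) and 18, 17 of the 28, at 20 µg/mL (4.74% and 4.05%), and 0 of the 31 fell in any of the 4. These counts moved with single libraries as well. The Soyo-san count at 100 µg/mL was 9 without replicate 2 and 7 with the numbering as a term. At 20 µg/mL it was 4 without replicate 2, 8 without replicate 3, and 9, 9 and 7 without vehicle replicate 1, 2 and 3. The Okbyeongpung-san count at 100 µg/mL was 5 without replicate 3, 7 without vehicle replicate 1 or 3 and 7 with the numbering as a term, and at 20 µg/mL it was 8 without replicate 2.

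Under Soyo-san at 500 µg/mL IFIH1 gave 10.9, 9.67 and 10.2 CPM against 6.55, 6.98 and 7.24 CPM in vehicle, with a log2 fold change of 0.57 ± 0.09 (edgeR adjusted p = 9.63e-06). MX1, a GTPase that blocks influenza and other RNA viruses, gave 9.03, 4.71 and 5.85 CPM under Soyo-san and 3.66, 3.45 and 3.42 CPM in vehicle, with a log2 fold change of 0.91 ± 0.20 (edgeR adjusted p = 0.00188). All Soyo-san values lay above vehicle, and replicate 1 was well above the other 2. The log2 fold changes were 0.41 ± 0.09 for IFIT3, 0.30 ± 0.07 for OAS3, 0.43 ± 0.10 for SAMD9, 0.60 ± 0.14 for IFI44, 0.69 ± 0.17 for IFIT1 and 0.46 ± 0.12 for IFIT2 (edgeR adjusted p from 0.00181 to 0.00515). The other 11 that rose were BST2, IFI6 (0.68), IRF7, IRF1 (0.20), OAS2, IRF9 (0.47), USP18 (0.48), MX2, ISG15 (0.31), CMPK2 and PARP9, with log2 fold changes from 0.20 to 1.25. Of these, OAS2, MX2 and CMPK2 are outside the 28 genes at 1 CPM in every group. OAS1, IFITM3, IFI27 and STAT2 did not pass the test, at log2 fold changes of 0.27, -0.11, 0.42 and -0.06 (edgeR adjusted p from 0.0537 for OAS1 to 0.681 for STAT2).

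Under Okbyeongpung-san at 500 µg/mL IFIH1 gave 9.95, 10.9 and 9.92 CPM against 6.55, 6.98 and 7.24 CPM in vehicle, with a log2 fold change of 0.57 ± 0.09 (edgeR adjusted p = 2.02e-05). OAS3 gave 102, 133 and 96.9 CPM under Okbyeongpung-san and 89.3, 79.9 and 83.7 CPM in vehicle, with a log2 fold change of 0.40 ± 0.07 (edgeR adjusted p = 0.000195). MX1 gave 5.19, 11.2 and 4.81 CPM under Okbyeongpung-san and 3.66, 3.45 and 3.42 CPM in vehicle, with a log2 fold change of 1.02 ± 0.20 (edgeR adjusted p = 0.00128). No library overlapped vehicle in the 3 genes, and replicate 2 was the highest Okbyeongpung-san library in each. The log2 fold changes were 0.51 ± 0.09 for IFIT3, 0.54 ± 0.10 for SAMD9, 0.76 ± 0.14 for IFI44, 0.73 ± 0.15 for IRF9 and 1.01 ± 0.22 for the mitochondrial nucleotide kinase CMPK2 (edgeR adjusted p from 0.000303 to 0.00272). The other 12 that rose were PARP9, IFI6 (0.78), HERC6, OAS2, OAS1 (0.39), IFIT1 (0.66), IRF1 (0.22), IRF7, MX2, IFIT5, USP18 (0.51) and ISG15 (0.33), with log2 fold changes from 0.22 to 1.36. CMPK2, OAS2 and MX2 are outside the 28 genes at 1 CPM in every group. CMPK2 averaged 0.833 CPM in vehicle, and its highest group mean, 1.67 CPM, was in this Okbyeongpung-san group, through which it also met the rule for members. IFITM3, IFI27 and STAT2 did not pass the test, at log2 fold changes of 0.29, 0.32 and 0.02 (edgeR adjusted p from 0.121 for IFITM3 to 0.925 for STAT2).

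**Figure D2:**
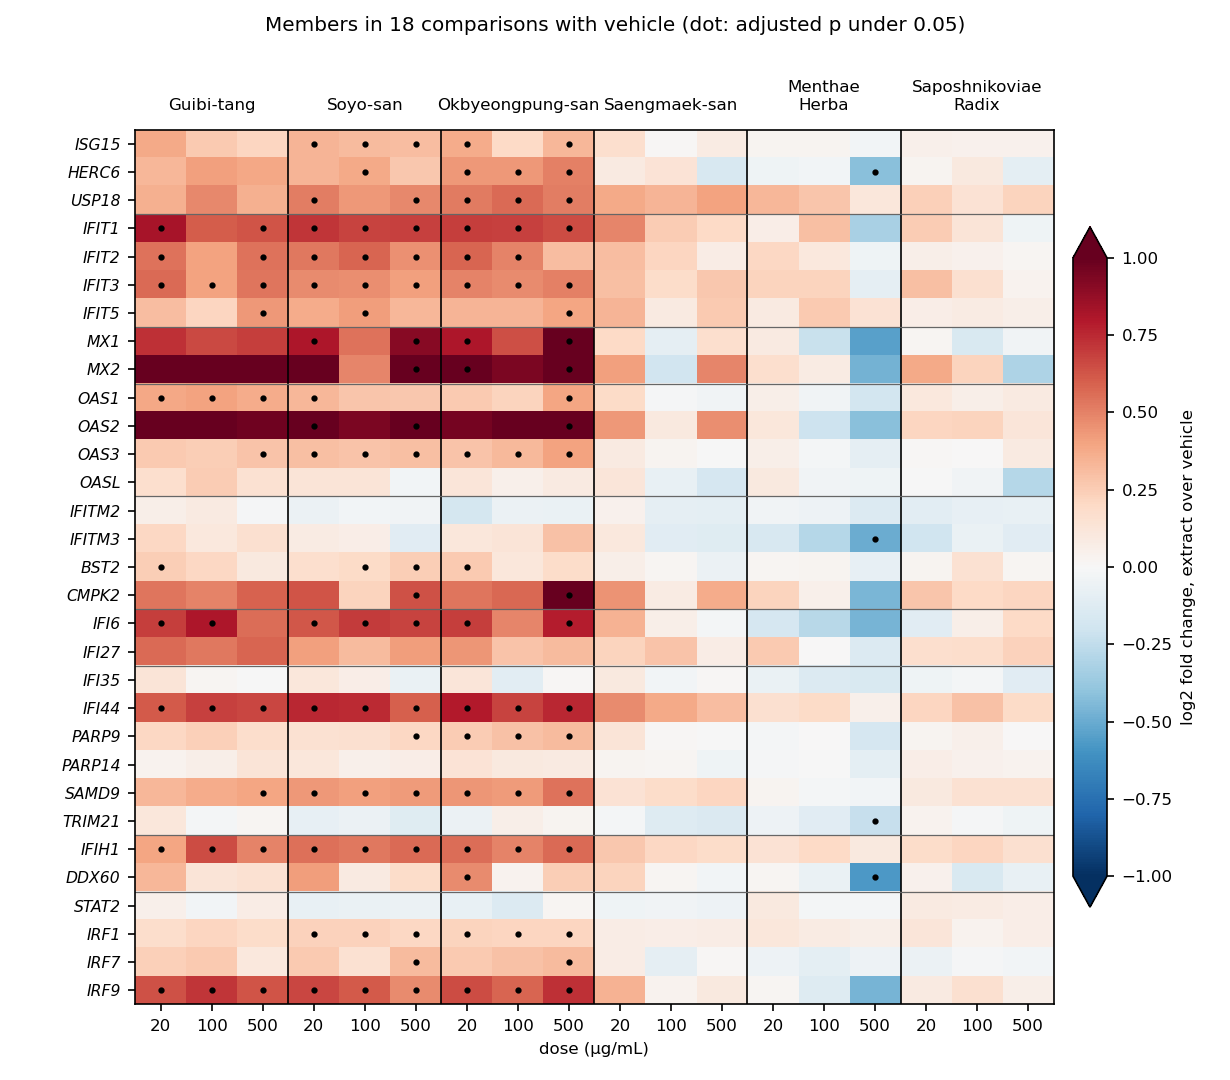
Log2 fold change over vehicle (colour, red higher and blue lower in the extract) of the 31 interferon-stimulated genes (rows, grouped by role) under 6 extracts at 20, 100 and 500 µg/mL (columns, low to high in each extract). Dots mark an adjusted p under 0.05; IFIT3, IFI44, IFIH1 and IRF9 carry one in all 9 columns of Guibi-tang, Soyo-san and Okbyeongpung-san, of which 8, 6, 8 and 0 hold whichever single library is left out, and 4 genes carry one under Menthae Herba at 500 µg/mL.

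Across the 9 comparisons of Guibi-tang, Soyo-san and Okbyeongpung-san with vehicle, which share the 3 vehicle libraries, IFIT3, IFI44, IFIH1 and IRF9 rose in all 9, as did 0.252% of all genes. With each library left out in turn, IFIT3 and IFIH1 kept 8 of the 9 calls throughout, IFI44 kept 6 and IRF9 kept 0. IFIT3 was lost under Guibi-tang at 100 µg/mL without vehicle replicate 1 or 3 or Guibi-tang replicate 2, and IFIH1 under Guibi-tang at 20 µg/mL without vehicle replicate 1 or Guibi-tang replicate 3. IFI44 was lost under Guibi-tang at 20 µg/mL without those libraries or vehicle replicate 3, at 100 µg/mL without vehicle replicate 3, and under Soyo-san at 500 µg/mL without its replicate 1. Without vehicle replicate 3, the lowest vehicle library in IRF9, 2 of the 9 IRF9 calls were left, both under Okbyeongpung-san, at 20 and 500 µg/mL, and these were lost without Okbyeongpung-san replicate 2 of that dose. IFIT1 rose in 8 and IFIT2, OAS3, IFI6 and SAMD9 in 7 each. The log2 fold changes over the 9 ran from 0.40 to 0.65 for IFIH1, from 0.40 to 0.57 for IFIT3, from 0.60 to 0.79 for IFI44 and from 0.47 to 0.73 for IRF9. In all 23 of the 31 genes, 20 of the 28, rose in at least 1 of the 9 and 0 fell in any, where 11.3% of all genes rose and 9.74% fell in at least 1. The 8 that rose in none were OASL, IFITM2, IFITM3, IFI27, IFI35, PARP14, TRIM21 and STAT2. IFI27, a mitochondrial interferon-induced protein, was positive in all 9, with log2 fold changes from 0.28 to 0.58, and did not pass the test in any. STAT2, the partner of IRF9 in ISGF3, stayed between -0.13 and 0.08, and IFITM2 between -0.18 and 0.09.

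By library, IFIH1 ran from 8.60 to 11.2 CPM in the 9 Guibi-tang libraries (median 9.99), from 8.99 to 11.2 CPM in Soyo-san (median 10.1), from 9.04 to 11.1 CPM in Okbyeongpung-san (median 9.95) and from 6.55 to 7.24 CPM in vehicle. Every library of the 3 formulas lay above vehicle. So did the 9 Saposhnikoviae Radix libraries (7.46 to 8.61 CPM) and the 3 Soshiho-tang libraries (8.52 to 10.1 CPM). Saengmaek-san ran from 7.23 to 9.03 CPM and Menthae Herba from 6.88 to 8.63 CPM. Vehicle had the lowest mean of the 22 groups in IFIH1, at 6.92 CPM, and in IFI44, at 2.32 CPM. In IFIT3 the 9 Saengmaek-san libraries (6.93 to 8.45 CPM) also lay above vehicle (6.14 to 6.70 CPM). IFI44 ran from 2.11 to 2.51 CPM in vehicle. All 9 Saengmaek-san (2.62 to 3.41 CPM) and all 3 Soshiho-tang libraries (2.57 to 3.48 CPM) lay above that. Menthae Herba and Saposhnikoviae Radix overlapped vehicle in both IFIT3 and IFI44. IRF9 ran from 9.32 to 11.4 CPM in Guibi-tang (median 10.8), from 7.30 to 11.4 CPM in Soyo-san (median 10.5), from 8.68 to 14.7 CPM in Okbyeongpung-san (median 9.99) and from 5.35 to 7.76 CPM in vehicle. A single Soyo-san library, replicate 2 at 500 µg/mL, fell inside the vehicle range of IRF9.

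Under Menthae Herba at 500 µg/mL 4 of the 31 genes fell below vehicle and 0 rose, where 3.98% of all genes were lower and 4.59% higher. The median log2 fold change was -0.14 over the 31 genes, with 5 positive, and -0.09 over the 28 at 1 CPM in every group, against 0.00 over all genes. IFITM3, which blocks the fusion of viruses with endosomes, gave 5.79, 5.13 and 6.83 CPM under Menthae Herba and 8.86, 8.11 and 8.13 CPM in vehicle, a log2 fold change of -0.50 ± 0.12 (edgeR adjusted p = 0.00576). DDX60, a helicase of the RNA-sensing pathway, gave 2.02, 2.93 and 2.41 CPM under Menthae Herba and 3.63, 3.74 and 3.54 CPM in vehicle, a log2 fold change of -0.57 ± 0.15 (edgeR adjusted p = 0.0104). All Menthae Herba values of both genes were below all vehicle values. HERC6, a ligase-domain protein of the family that attaches ISG15, gave 3.89, 3.79 and 3.96 CPM under Menthae Herba and 5.07, 4.60 and 5.93 CPM in vehicle, a log2 fold change of -0.42 ± 0.12 (edgeR adjusted p = 0.0267). TRIM21, a cytosolic antibody receptor, averaged 15.5 ± 0.0962 CPM under Menthae Herba and 18.3 ± 0.847 CPM in vehicle (SD), a log2 fold change of -0.23 ± 0.07 (edgeR adjusted p = 0.0316).

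MX1 gave 2.36, 2.64 and 2.23 CPM under Menthae Herba at 500 µg/mL and 3.66, 3.45 and 3.42 CPM in vehicle, and IFI6 gave 2.33, 2.38 and 2.50 CPM under Menthae Herba and 3.56, 3.27 and 3.15 CPM in vehicle. Neither gene passed the test, at log2 fold changes of -0.54 ± 0.22 and -0.47 ± 0.19 (edgeR adjusted p = 0.128 and 0.135). Their values did not overlap between the groups, but the share of all genes of which this held was not counted. The log2 fold changes were -0.03 for ISG15, -0.33 for IFIT1, -0.09 for IFIT3, -0.19 for OAS1, -0.09 for OAS3, -0.14 for IFI27, 0.11 for USP18, -0.02 for STAT2, -0.46 for IRF9 and 0.06 for IRF1, with edgeR adjusted p from 0.0549 for IRF9 to 0.931 for ISG15. Leaving out a library moved the count of 4 to between 1 and 4, with 1 without replicate 1 or 2 of Menthae Herba and 2 without its replicate 3 or without vehicle replicate 1. In the fit of the earlier-numbered libraries alone, which holds all libraries of both groups, 8 genes fell, where 6.54% of all genes were lower and 7.49% higher. At 100 and 20 µg/mL 0 of the 31 passed edgeR's test, with an unadjusted p under 0.05 in 4 and 2 genes, where 0.334% of all genes were higher and 0.405% lower at 100 µg/mL, and 0.0117% and 0.0469% at 20 µg/mL. Shares of all genes, here and below, are at an adjusted p under 0.05. The share at an unadjusted p under 0.05 is not given, so the unadjusted counts have no background beside them. DESeq2 called 0 at both doses and gave no adjusted p to 11 and 19 of the genes.

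**Figure D3:**
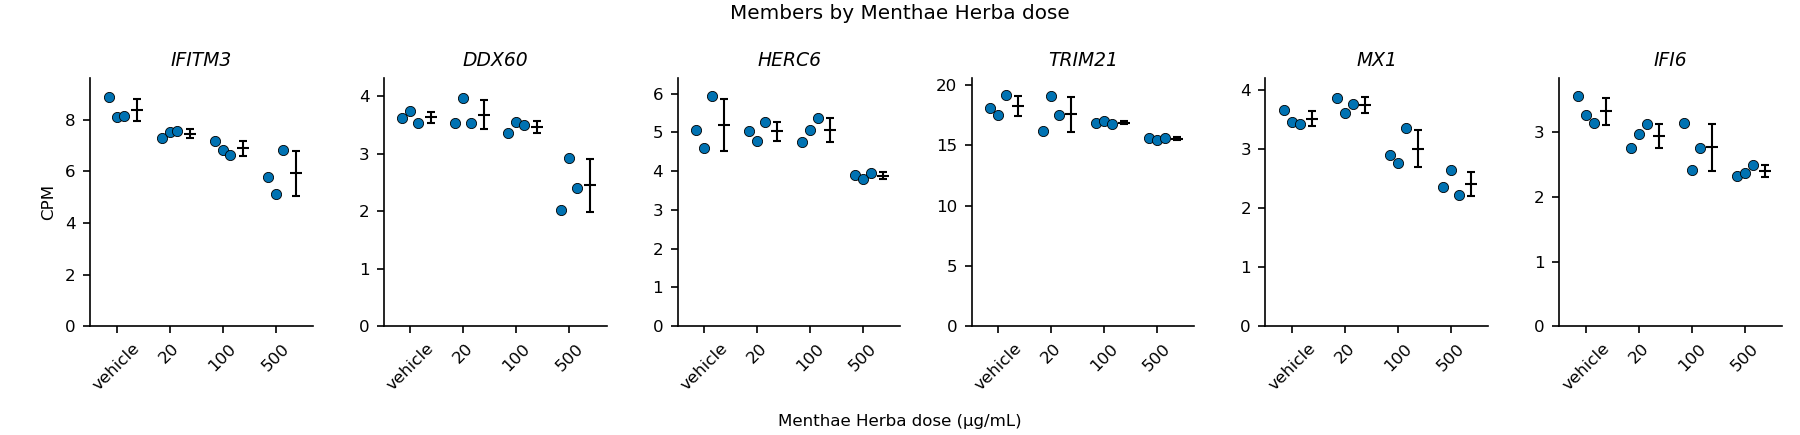
CPM (vertical axis, from 0) of 6 interferon-stimulated genes in every vehicle and Menthae Herba library, by dose (horizontal axis). Points are libraries, and the bar beside them is the mean with the SD of 3 libraries. The 500 µg/mL libraries are the lowest in DDX60 (2.02 to 2.93 CPM), HERC6 (3.79 to 3.96 CPM) and MX1 (2.23 to 2.64 CPM).

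Between the doses of Menthae Herba, 500 against 20 µg/mL, 2 of the 31 genes fell and 0 rose, where 1.23% of all genes were lower and 1.13% higher. DDX60 had a log2 fold change of -0.59 ± 0.15 (edgeR adjusted p = 0.0156) and IFIT3 of -0.31 ± 0.09 (edgeR adjusted p = 0.0452). DDX60 averaged 3.64 ± 0.0989 CPM in vehicle, 3.68 ± 0.252 CPM at 20 µg/mL, 3.47 ± 0.102 CPM at 100 µg/mL and 2.45 ± 0.456 CPM at 500 µg/mL (SD, n = 3). IFITM3 averaged 8.37 ± 0.431, 7.46 ± 0.156, 6.88 ± 0.280 and 5.92 ± 0.858 CPM over the same series. The median log2 difference over the 31 genes was -0.18 (-0.15 over the 28 at 1 CPM in every group), with 2 positive and 14 at an unadjusted p under 0.05. Leaving out a library moved the count of 2 to 0 or 1, with 0 when replicate 1 or 3 at 500 µg/mL or replicate 2 at 20 µg/mL was left out.

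In the other 5 extracts with 3 libraries a dose, 0 of the 31 genes passed edgeR's test between 500 and 20 µg/mL, under Guibi-tang (0.211% of all genes higher and 0.141% lower), Soyo-san (0.088% and 0.0411%), Okbyeongpung-san (0.00587% and 0%), Saengmaek-san (0.0117% and 0.0117%) and Saposhnikoviae Radix (0.0293% and 0%). An unadjusted p under 0.05 was reached by 1 of the 31 under Guibi-tang, 0 under Soyo-san, 2 under Okbyeongpung-san, 3 under Saengmaek-san and 2 under Saposhnikoviae Radix. DESeq2 called 0 in each as well, with no adjusted p for 14 of the 31 under Saengmaek-san. The median log2 differences were -0.02 for Guibi-tang, -0.03 for Soyo-san, 0.05 for Okbyeongpung-san, -0.09 for Saengmaek-san and -0.03 for Saposhnikoviae Radix. Of the 31 differences 11 were positive under Guibi-tang, 11 under Soyo-san, 19 under Okbyeongpung-san, 5 under Saengmaek-san and 7 under Saposhnikoviae Radix. The mean over the 31 genes under Saengmaek-san was 0.203 at 20 µg/mL and 0.0911 at 500 µg/mL. The levels above vehicle under Guibi-tang, Soyo-san and Okbyeongpung-san were present at 20 µg/mL: IRF9 averaged 10.5 ± 1.02, 10.8 ± 0.683 and 10.7 ± 1.98 CPM there, against 6.77 ± 1.26 CPM in vehicle (SD, n = 3). These IRF9 calls each hung on single libraries. Those under Guibi-tang and Soyo-san were lost without vehicle replicate 3, and that under Okbyeongpung-san without its replicate 2.

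Under Saengmaek-san at 500 µg/mL 0 of the 31 genes passed edgeR's test against vehicle, with an unadjusted p under 0.05 in 7, where 2.39% of all genes were higher and 1.89% lower. DESeq2 called 0 and gave no adjusted p to 11 of the genes. MX1 averaged 3.95 ± 0.284 CPM under Saengmaek-san and 3.51 ± 0.129 CPM in vehicle (SD, n = 3), a log2 fold change of 0.16 with a 95% interval from -0.26 to 0.59. For OAS3 the log2 fold change was -0.01 with an interval from -0.15 to 0.13, and for IFI6 -0.02 with an interval from -0.40 to 0.37. IFIT3 came nearest to the threshold, at 0.27 with an interval from 0.09 to 0.45 (edgeR adjusted p = 0.0728). The log2 fold changes of the other genes followed in every comparison were 0.09 for ISG15, 0.20 for IFIT1, -0.03 for OAS1, -0.12 for IFITM3, 0.08 for IFI27, 0.40 for USP18, -0.05 for STAT2, 0.10 for IRF9 and 0.08 for IRF1. At 20 µg/mL 29 of the 31 log2 fold changes over vehicle were positive. Their median was 0.19 (0.16 over the 28 at 1 CPM in every group), against 0.00 over all genes. The means over the 31 genes, 0.158 to 0.232 in the 3 libraries, lay above those of vehicle (-0.0252 to 0.0385). At 100 and 20 µg/mL 0 passed the test, where 0.164% of all genes were higher and 0.252% lower at 100 µg/mL, and 0.0352% and 0.0587% at 20 µg/mL. An unadjusted p under 0.05 was reached by 4 and 9 of the 31, and DESeq2 called 0 at both doses, with no adjusted p for 14 of the 31 at each.

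Under Saposhnikoviae Radix at 500 µg/mL 0 of the 31 genes passed edgeR's test against vehicle, with an unadjusted p under 0.05 in 1, where 0.293% of all genes were higher and 0.205% lower. DESeq2 called 0, with no adjusted p for 3 of the genes. The log2 fold changes were 0.04 for ISG15, 0.20 for IFI6, -0.04 for IFIT1, 0.04 for IFIT3, -0.03 for MX1, 0.09 for OAS1, 0.09 for OAS3, -0.12 for IFITM3, 0.23 for IFI27, 0.22 for USP18, 0.07 for STAT2, 0.06 for IRF9 and 0.06 for IRF1. The 95% interval was from -0.45 to 0.39 for MX1 and from -0.05 to 0.23 for OAS3. At 100 and 20 µg/mL 0 passed the test, where 0.0117% of all genes were higher and 0.0176% lower at 100 µg/mL, and 0.0645% and 0.106% at 20 µg/mL. An unadjusted p under 0.05 was reached by 3 of the 31 at each dose, and DESeq2 called 0, with no adjusted p for 9 and 13 of the 31.

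The comparison of Guibi-tang with Saengmaek-san does not involve vehicle, and its libraries alternate in the numbering. At 500 µg/mL 4 of the 31 genes were higher under Guibi-tang and 0 lower, where 0.328% of all genes were higher and 0.0411% lower. HERC6 gave 6.29, 7.19 and 6.81 CPM under Guibi-tang and 4.06, 5.48 and 4.37 CPM under Saengmaek-san, a log2 fold change of 0.55 ± 0.12 (edgeR adjusted p = 0.0169). OAS3 gave 101, 103 and 104 CPM under Guibi-tang and 85.9, 81.1 and 84.7 CPM under Saengmaek-san, a log2 fold change of 0.29 ± 0.07 (edgeR adjusted p = 0.0356). The groups did not overlap in either gene, and the share of all genes of which this held at this dose was not counted. IFIT2 (0.47 ± 0.11) and OAS1 (0.40 ± 0.10) were the other 2 (edgeR adjusted p = 0.0378 and 0.0379). These 4 calls sat close to the threshold: leaving out any of the 6 libraries gave 1 or 2, and a fit of the 6 libraries alone gave 0.

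After the values at 500 µg/mL had been seen, the other doses and the mean of the 3 doses were compared as well. At 100 µg/mL 4 genes were higher under Guibi-tang and 0 lower (0.37% of all genes higher, 0.0235% lower): IFIH1 (0.44 ± 0.09), IRF9 (0.68 ± 0.15), OAS1 (0.41 ± 0.10) and IFI6 (0.75 ± 0.18), with edgeR adjusted p from 0.0025 to 0.0441. At 20 µg/mL 0 passed, with an unadjusted p under 0.05 in 12, where 0.17% of all genes were higher and 0% lower. At 100 and 20 µg/mL no other fit of this comparison was run, neither DESeq2 nor one without a library. The calls at 100 µg/mL are therefore unchecked. At that dose Guibi-tang has 1 earlier- and 2 later-numbered libraries, and Saengmaek-san 2 and 1. Over the mean of the 3 doses 14 of the 31 genes, 13 of the 28 at 1 CPM in every group, were higher and 0 lower, where 0.716% of all genes were higher and 0.317% lower. All 31 log2 fold changes were positive, with a median of 0.23 (0.20 over the 28) against 0.00 over all genes. With the numbering as a term 14 of the 31 and 12 of the 28 were higher, 12 of the 14 being among the first 14, where 0.698% of all genes were higher and 0.311% lower, and leaving out a library gave 11 to 18.

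**Figure D4:**
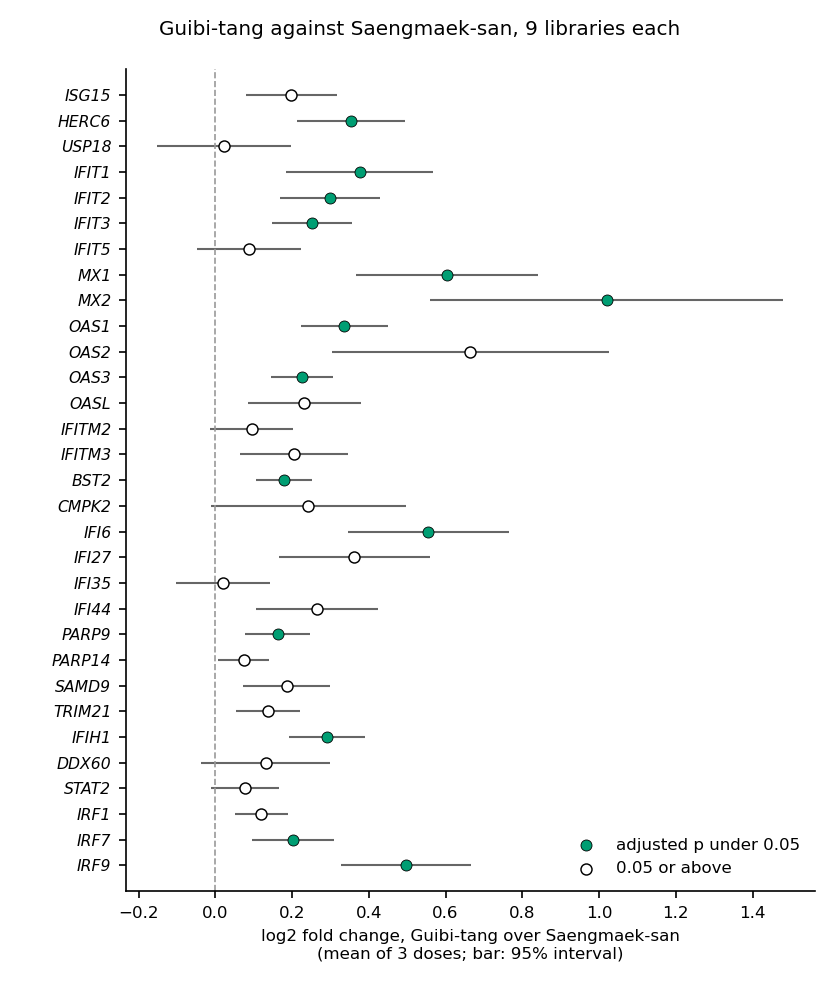
Log2 fold change of Guibi-tang over Saengmaek-san, as the mean of 3 doses (horizontal axis), for the 31 interferon-stimulated genes, with 95% intervals as bars and 9 libraries for each extract. Filled points, 14 in all, have an adjusted p under 0.05. The 13 of them among the 28 genes at 1 CPM in every group run from 0.16 for PARP9 to 0.60 for MX1. MX2, at 1.02, is outside the 28: it reached 1 CPM in 8 groups, and its highest group mean was under Guibi-tang.

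Over the mean of the doses the oligoadenylate synthetases OAS1 (0.34 ± 0.06) and OAS3 (0.23 ± 0.04) were higher under Guibi-tang, with edgeR adjusted p of 9.36e-05 and 0.000282. OAS3 ran from 93.4 to 106 CPM in the 9 Guibi-tang libraries (median 103) and from 81.1 to 91.6 CPM in the 9 Saengmaek-san libraries (median 85.9). MX1 ran from 4.74 to 6.65 CPM in Guibi-tang (median 5.90) and from 2.45 to 4.40 CPM in Saengmaek-san (median 4.02), with a log2 fold change of 0.60 ± 0.12 (edgeR adjusted p = 0.00174). In MX1 and OAS3, and in MX2 and OAS2, which are outside the 28, every Guibi-tang library lay above every Saengmaek-san library, which held for 0.246% of the 17049 genes. MX2 ran from 0.940 to 1.52 CPM in Guibi-tang (median 1.19) and from 0.331 to 0.766 CPM in Saengmaek-san (median 0.644), and its log2 fold change was 1.02 ± 0.23 (edgeR adjusted p = 0.0089). OAS2 was apart in the same way but did not pass the test (0.66 ± 0.18, edgeR adjusted p = 0.0542).

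Of the regulators, IRF9 (0.50 ± 0.08, edgeR adjusted p = 0.00015) and IRF7 (0.20 ± 0.05, edgeR adjusted p = 0.0415), a factor that drives interferon genes, were higher under Guibi-tang. IRF9 ran from 9.32 to 11.4 CPM in Guibi-tang and from 6.23 to 9.45 CPM in Saengmaek-san, so that the ranges met over a short stretch. IFIH1 (0.29 ± 0.05), IFI6 (0.56 ± 0.10), a small membrane protein of mitochondria and the endoplasmic reticulum, and HERC6 (0.35 ± 0.07) were also higher, with edgeR adjusted p of 0.000105, 0.00081 and 0.00144. BST2 (0.18 ± 0.04), IFIT3 (0.25 ± 0.05), IFIT2 (0.30 ± 0.06), IFIT1 (0.38 ± 0.10) and PARP9 (0.16 ± 0.04) made up the 14 (edgeR adjusted p from 0.00208 to 0.0346). STAT2, at 0.08 ± 0.04, and USP18, the protease that removes ISG15, at 0.02 ± 0.09, did not pass the test. Mitochondrial transcripts took 10.1 to 13.9% of counts in Guibi-tang libraries and 10.0 to 12.4% in Saengmaek-san libraries, and their part in these differences was not tested.

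**Figure D5:**
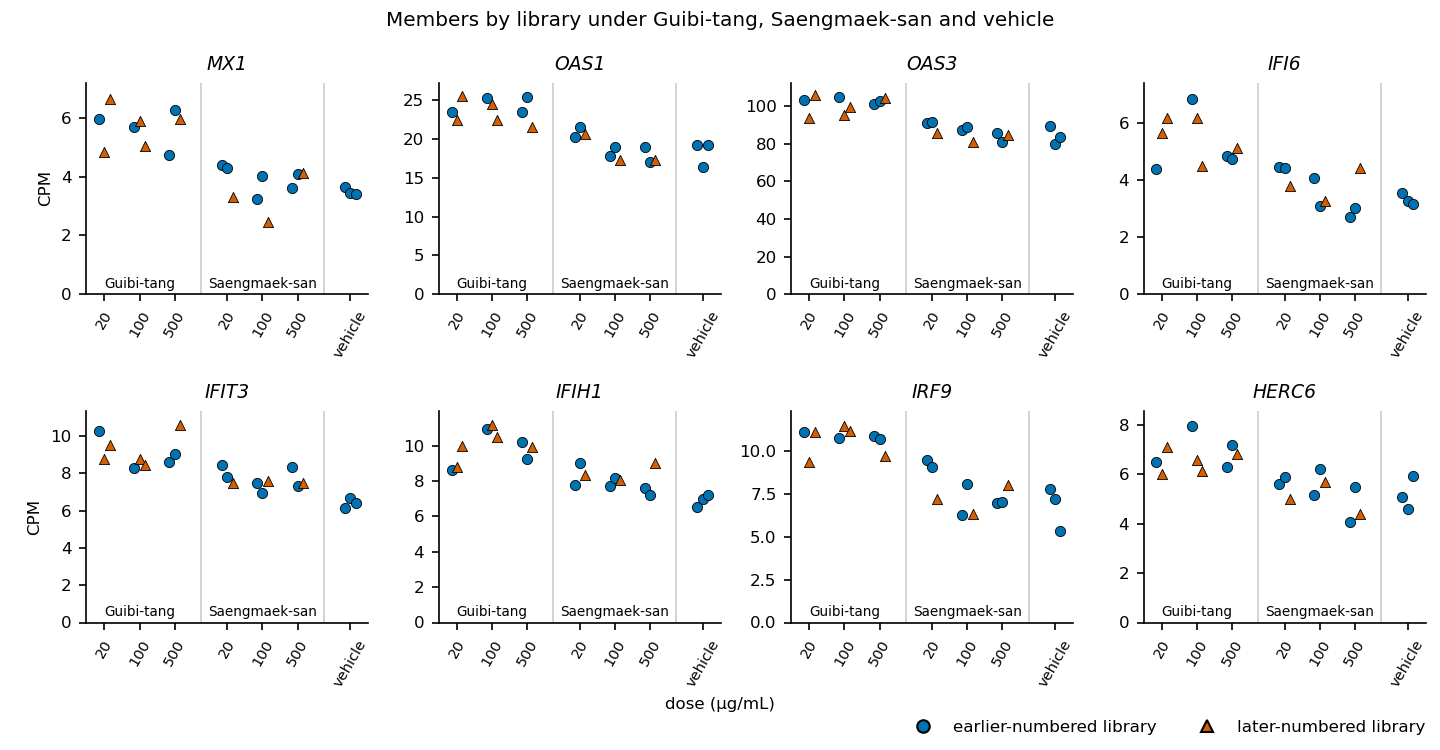
CPM (vertical axes, from 0) of 8 interferon-stimulated genes in every Guibi-tang, Saengmaek-san and vehicle library, with doses in µg/mL on the horizontal axis. Circles are earlier-numbered and triangles later-numbered libraries. In MX1 and OAS3 all Guibi-tang points lie above all Saengmaek-san points, in circles and triangles alike.

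Soyo-san and Okbyeongpung-san did not differ detectably in these genes. At 500 µg/mL 0 of the 31 passed edgeR's test, with an unadjusted p under 0.05 in 1 (IFITM3, named after its value was seen), 0% of all genes were higher or lower and DESeq2 called 0 of the 31. Over the mean of the 3 doses, a comparison added after seeing the data, 0 of the 31 passed, with 3 at an unadjusted p under 0.05, where 0.00587% of all genes were higher and 0% lower. The log2 difference, Soyo-san over Okbyeongpung-san, was -0.07 for MX1 with a 95% interval from -0.30 to 0.16, -0.04 for OAS3 with an interval from -0.12 to 0.04, and 0.01 for IFIH1 with an interval from -0.09 to 0.11. Over the 31 genes it ran from -0.21 to 0.06.

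Menthae Herba and Saposhnikoviae Radix, the single herbs, were compared at 500 µg/mL, and 0 of the 31 genes passed edgeR's test, with an unadjusted p under 0.05 in 13, where 0.493% of all genes were higher and 0.604% lower. DESeq2 called 2, both lower under Menthae Herba. The median log2 difference at 500 µg/mL was -0.16 (-0.14 over the 28 at 1 CPM in every group), with 2 of 31 positive. IFI6 had a difference of -0.67 ± 0.19 with an interval from -1.05 to -0.28 (edgeR adjusted p = 0.0733) and IRF9 of -0.52 ± 0.15 with an interval from -0.84 to -0.21 (edgeR adjusted p = 0.0954). The count at 500 µg/mL depended on the fit. It was 8, all lower under Menthae Herba, with the earlier-numbered libraries alone, which hold every library of both extracts, where 1.03% of all genes were lower and 1.22% higher. With the 6 libraries alone it was 11, all lower, where 1.89% of all genes were lower and 2.16% higher. Over the mean of the 3 doses, added after seeing the data, 0 passed, with an unadjusted p under 0.05 in 11, where 0.434% of all genes were higher and 0.557% lower, and the median log2 difference was -0.09, with 6 of 31 positive.

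Soshiho-tang had 1 library a dose, so its values have no replicate check, and genes were counted that lay at least 1.5-fold from the vehicle mean and outside the vehicle range. At 500 µg/mL 5 of the 31 genes were lower by that rule and 0 higher, where 11.1% of all genes were lower and 4.64% higher. They were HERC6 (3.06 CPM, against a vehicle mean of 5.20 CPM), MX1 (2.31 against 3.51 CPM), OAS2 (0.843 against 1.70 CPM), IFI27 (3.99 against 6.63 CPM) and DDX60 (2.35 against 3.64 CPM). The MX1 value rests on 52 counts, with an exact Poisson 95% interval from 1.72 to 3.03 CPM that covers counting error only. At 100 µg/mL 0 genes passed in either direction (2.65% of all genes higher, 6.62% lower). At 20 µg/mL IFIT1 (5.33 against 3.00 CPM) and MX2 (1.10 against 0.508 CPM) were higher and 0 lower (3.6% of all genes higher, 5.38% lower). MX2 here and OAS2 at 500 µg/mL are outside the 28 genes at 1 CPM in every group. The mean over the 31 genes was 0.248 at 20 µg/mL, 0.235 at 100 µg/mL and -0.199 at 500 µg/mL, on the log2 scale relative to vehicle.

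Other genes of the pathway were followed in lists. Of 10 interferon genes only 1 had enough counts to be tested, and it passed the test in none of the 6 comparisons of 500 µg/mL with vehicle. Of 9 receptor chains and JAK kinases, IFNGR1, the ligand-binding chain of the interferon gamma receptor, was higher under Guibi-tang (77.4 ± 2.93 CPM against 58.5 ± 1.80 CPM in vehicle, log2 fold change 0.40 ± 0.05), Soyo-san (0.31), Okbyeongpung-san (0.26) and Menthae Herba (0.18 ± 0.05, edgeR adjusted p = 0.0208). TYK2 was higher under Okbyeongpung-san (0.22). Of all genes, 1.28% were higher under Guibi-tang, 8.03% under Soyo-san, 4.36% under Okbyeongpung-san and 4.59% under Menthae Herba. Of the feedback inhibitors of interferon signalling 6 were tested. PIAS3, an inhibitor of STAT signalling, was lower under Guibi-tang (-0.19), Soyo-san (-0.31), Okbyeongpung-san (-0.19), Menthae Herba (-0.20) and Saengmaek-san (-0.22). In the same order, 0.974%, 6.43%, 3.03%, 3.98% and 1.89% of all genes were lower. The list did not move as a whole. Under Soyo-san PTPN2 (53.4 against 51.1 CPM in vehicle), PTPN6 (18.7 against 17.3 CPM) and PTPN11 (272 against 262 CPM) averaged higher. PIAS1 and CISH averaged lower there. These means are given without a test.

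Of 30 further interferon-stimulated effectors tested at 500 µg/mL, 8 were higher and 0 lower under Okbyeongpung-san (4.36% of all genes higher, 3.03% lower) and 4 higher and 2 lower under Soyo-san (8.03% and 6.43%). Under Guibi-tang 1 was higher and 0 lower (1.28% and 0.974%), and under Menthae Herba 0 were higher and 2 lower (4.59% and 3.98%). PLSCR1, an antiviral phospholipid scramblase, was higher under Guibi-tang (0.24 ± 0.06), Soyo-san (0.26 ± 0.06) and Okbyeongpung-san (0.25 ± 0.06), and SP100, a nuclear body protein, under Soyo-san (0.32) and Okbyeongpung-san (0.35). PARP10 and PML were lower under Menthae Herba (-0.28 and -0.16). Of the genes that supply peptides to MHC class I, TAP2, a subunit of the peptide transporter, was higher under Okbyeongpung-san (0.22) and Soyo-san (0.19), and under Soyo-san PSMB10 was higher (0.27) and TAPBP lower (-0.26). Over the mean of the doses of Guibi-tang against Saengmaek-san, 6 of the 30 effectors and 2 of 12 genes of MHC class I and its peptide supply were higher and 0 lower (0.716% of all genes higher, 0.317% lower), among them PARP10 (0.28 ± 0.05), APOL1 (0.18 ± 0.04), GBP2 (0.21 ± 0.04) and TAP1 (0.27 ± 0.06), and IFNGR1 was higher as well (0.19 ± 0.03, edgeR adjusted p = 1.1e-05).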

How the data were processed

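RNA of HT29 cultures was sequenced as directional MGIEasy libraries on MGIseq with 100 bp paired reads, per the labels' protocols. The deposited values are expected counts per Ensembl gene made with RSEM 1.3.3; FastQC 0.11.9, Trim Galore 0.6.5, STAR 2.7.3a and GRCh38 are named in the submitters' processing notes, with the annotation release and the strand setting not given in the sources used here. RSEM divides reads that match several genes, and 27.7% of values above 0 were not whole, so the expected counts as deposited were rounded. Symbols, lengths and coordinates came from GENCODE 29. Some genes of the lists are not reported here. The 31 members and all lists were chosen with earlier results of these data known.

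Genes were kept by edgeR's filterByExpr (17049 genes, 99.95% of the counts), scaled by TMM and fitted in edgeR 4.0.16 (R 4.3.3, limma 3.58.1) with 1 robust quasi-likelihood model of 19 groups over 57 libraries (38 residual degrees of freedom). P-values were adjusted by Benjamini-Hochberg over all 17049 genes, with a threshold of 0.05. Counts at an unadjusted p under 0.05 are given for members only, without the share of all genes. An SE is the log2 fold change over the root of F, and 95% intervals use the t distribution. CPM were scaled by TMM over 60 libraries, and means over members use log2 CPM with a prior count of 2. Soshiho-tang entered no test. Every member past the threshold is named or counted, with at most 8 in full for a comparison; ISG15, IFI6, IFIT1, IFIT3, MX1, OAS1, OAS3, IFITM3, IFI27, USP18, STAT2, IRF9 and IRF1 are given in each comparison of 500 µg/mL with vehicle, and at most 4 genes of each other list. The method was tested on simulated data with the same coefficient of variation for every gene and changes in a single group. The simulation held no difference between the parts of the numbering, so it does not cover that difference or the wider spread of the members. No 2 libraries of a group agreed within counting noise (lowest chi-square 1.84 per gene).

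Same-numbered libraries deviated together in Guibi-tang against Saengmaek-san at 500 µg/mL (correlations 0.144, 0.129 and 0.286), as judged from the data and not from the labels; with the number as a replicate block 4 members were called there, as without it. Alternatives were DESeq2 1.42.0 (its size factors and its test), no filter, a replicate block, a numbering term, the earlier-numbered libraries alone, the compared groups alone and leaving out each library.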

Additional observations from a re-analysis of the deposited data

Results flagged for a closer look

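The results below are those in which Guibi-tang and Saengmaek-san, compared with each other, differed in a test of the difference itself, given as log2 differences with Guibi-tang on top (edgeR, adjusted p under 0.05 over all genes). At 500 µg/mL they were HERC6 (0.5477), IFIT2 (0.4697), OAS1 (0.4047) and OAS3 (0.2915). At 100 µg/mL they were OAS1 (0.4123), IFI6 (0.75), IFIH1 (0.44) and IRF9 (0.6781). Over the mean of the 3 doses the antiviral GTPases were MX1 (0.6035) and MX2 (1.021), and the oligoadenylate synthetases OAS1 (0.3364) and OAS3 (0.2262). MX2 is outside the 28 genes at 1 CPM in every group. It reached 1 CPM in 8 groups, and its highest group mean was under Guibi-tang, so its place on this list leans on that extract. The RNA binders were IFIT1 (0.3758), IFIT2 (0.2987) and IFIT3 (0.2515), and the RNA sensor IFIH1 (0.291). The regulators were IRF7 (0.2029) and IRF9 (0.4973), and the others HERC6 (0.3542), BST2 (0.1798), IFI6 (0.5551) and PARP9 (0.1627). The comparisons at 100 µg/mL and over the mean of the doses were added after the values at 500 µg/mL had been seen, and the 3 doses share libraries with the mean. The calls at 100 µg/mL were not followed through other fits.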

How the results depend on the processing

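The values here are counts of the 31 genes past the threshold. The share of all genes called in the same fit is given above for some of them only, so the rest have no background beside them. With no filter on low counts the count was 1 for Saengmaek-san against vehicle at 500 µg/mL, 16 for Guibi-tang, 4 for Menthae Herba between doses, 6 for Menthae Herba against Saposhnikoviae Radix, 7 for Guibi-tang against Saengmaek-san and 1 for Soyo-san against Okbyeongpung-san. With the numbering term it was 9 for Soyo-san, 12 for Okbyeongpung-san and 21, in place of 32, summed over the 6 comparisons at 100 µg/mL. With the earlier-numbered libraries alone it was 8 for Menthae Herba, 2 for Saengmaek-san (1 higher, 1 lower) and 8 for Menthae Herba against Saposhnikoviae Radix. With the compared groups alone it was 8 for Menthae Herba, 12 for Okbyeongpung-san, 7 for Menthae Herba between doses, 11 for Menthae Herba against Saposhnikoviae Radix and 0 for Guibi-tang against Saengmaek-san. DESeq2's test gave 1 for Menthae Herba between doses and 2 for Menthae Herba against Saposhnikoviae Radix; it was not run for the mean of the doses. The replicate block gave 1 for Menthae Herba against Saposhnikoviae Radix and 3, in place of 5, between the parts of the numbering, and moved no other of these counts by over 1.5 times; outside Guibi-tang against Saengmaek-san at 500 µg/mL the libraries share only a number. Leaving out a library gave 1 to 4 for Menthae Herba, 4 to 7 for Guibi-tang, 4 to 19 for Soyo-san, 6 to 20 for Okbyeongpung-san, 0 to 1 for Menthae Herba between doses and against Saposhnikoviae Radix, 1 to 2 for Guibi-tang against Saengmaek-san, 11 to 18 for the mean of the doses, 2 to 6 between the parts of the numbering, 18 to 32 summed at 100 µg/mL and 23 to 44, in place of 42, summed at 20 µg/mL; these sums were 21 and 25 without vehicle replicate 1 and 18 and 23 without vehicle replicate 3. Of 152 single-gene calls, followed through 1972 alternative values, 1506 values kept the call, 466 lost it and 0 reversed; the cause was not tested. CMPK2 and MX2 were near 1 CPM, where counting error is widest.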
